A study of Rattus norvegicus with 6 samples.

Results

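The CG methylation profile across genes and their flanks was examined in brain microvascular endothelial cells (BMECs), the cells that line the capillaries of the blood–brain barrier. The profile consists of 150 bins, with 50 bins for the 2000 bp before the gene start, 50 for the gene body and 50 for the 2000 bp after the gene end. It was chosen by its cytosine context and makes up 150 of the 450 bins of the gene profile, or 300 of its 900 values, and the remaining bins hold the CHG and CHH contexts. Cells were sorted as CD45-/CD31+ from the hippocampus of male Sprague-Dawley rats that were adult and had been obtained at 6 weeks of age. The CUMS group (3 samples) received chronic unpredictable mild stress for 8 weeks, in which a restraint, deprivation, tilted cage, wet bedding, cold swim or constant light stressor was given each day. The Ctrl group (3 samples) was left in the home cage, and no transgene or drug is named for either group. The study's methods describe saline given by gavage to control and stressed rats alike, without saying whether the sequenced rats were included. Each bin held 1 level for CUMS and 1 for Ctrl, combined over the samples by the authors. No level therefore has a replicate error, the study states a sequencing coverage per sample but the number of reads behind a bin was not given, and no difference between CUMS and Ctrl could be compared with the spread between samples or tested. The profile averages over genes, so the levels of endothelial marker genes could not be read from it to check the sorted cell type.

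In mammalian DNA, methyl groups are placed mainly on the cytosine of CG dinucleotides, which are scarce in most of the genome and dense in CpG islands. Islands lie at the start of many genes and are usually unmethylated there, a state associated with promoters that can be transcribed, whereas CG sites within transcribed genes are usually methylated. In the libraries, TET2 oxidised methylated cytosine and thereby protected it, and APOBEC3A deaminated the cytosine that was left. The assay reads 5-methylcytosine and 5-hydroxymethylcytosine alike as methylated, and a cytosine missed by the deaminase is also read as methylated.

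The lowest levels lay in the last upstream bins. For orientation, the 240 bases that correspond to the 6 upstream bins nearest the gene start are shown for 3 genes, with each CG dinucleotide in capitals. Cldn5 encodes the tight junction protein claudin-5, Cacna1c encodes the calcium channel Cav1.2 that the study followed, and Bend4 is the gene whose CG region at a TSS had the largest level difference summed over its cytosines among genes with a promoter entry. The sequences are those of RefSeq on GRCr8 and run 5′ to 3′ on the gene's strand: chr11:95718599-95718838 (minus strand) for Cldn5, chr4:154051749-154051988 (minus strand) for Cacna1c and chr14:41106722-41106961 (plus strand) for Bend4.
Cldn5: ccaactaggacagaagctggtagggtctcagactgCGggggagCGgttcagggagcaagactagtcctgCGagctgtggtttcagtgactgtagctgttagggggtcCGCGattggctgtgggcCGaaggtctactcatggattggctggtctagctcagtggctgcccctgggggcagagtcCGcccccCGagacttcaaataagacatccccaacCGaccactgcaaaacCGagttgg
Cacna1c: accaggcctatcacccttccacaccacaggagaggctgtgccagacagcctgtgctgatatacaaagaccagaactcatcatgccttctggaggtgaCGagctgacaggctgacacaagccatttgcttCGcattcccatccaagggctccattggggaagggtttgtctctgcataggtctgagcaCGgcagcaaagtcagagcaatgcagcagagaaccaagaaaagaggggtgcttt
Bend4: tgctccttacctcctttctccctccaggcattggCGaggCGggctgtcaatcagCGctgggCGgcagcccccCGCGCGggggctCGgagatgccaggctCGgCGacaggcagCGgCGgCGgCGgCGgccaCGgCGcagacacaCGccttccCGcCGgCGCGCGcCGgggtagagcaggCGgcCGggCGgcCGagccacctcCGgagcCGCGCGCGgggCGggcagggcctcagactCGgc

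These windows show how unlike the promoters are that a profile over genes combines. The Cacna1c window held 3 CG dinucleotides, none of them in the last 40 bases. The Cldn5 window held 10, and the Bend4 window held 35. Among 21851 protein-coding RefSeq windows of the same length, 24.95% held fewer CG dinucleotides than Cacna1c, 54.1% fewer than Cldn5 and 97.3% fewer than Bend4. Bend4 was chosen by a difference summed over cytosines, a rule that favours CG-rich starts, so its high rank is no separate result. The median window held 8 (quartiles 3 and 18), and 92.7% held at least 1. RefSeq starts on GRCr8 need not be the starts that the authors used on mRatBN7.2, and the sequences give no methylation level of these promoters.

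The shape of the profile was described first. In Ctrl, the level at the outer end of the upstream flank was 54.1% (bin 1), and it declined to 19.1% in bin 50, which ends at the gene start. It was 39.7% in the first bin of the gene body and reached 77.1% in gene body bin 47. After the gene end it was 62.4% in downstream bin 1 and 58.8% in downstream bin 50. In CUMS, the same positions had 57.5%, 23.5%, 44.1%, 78.0%, 65.5% and 62.0%. Both groups thus had low levels before the gene start, high levels through the gene body and intermediate levels in both outer flanks.

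**Figure D1:**
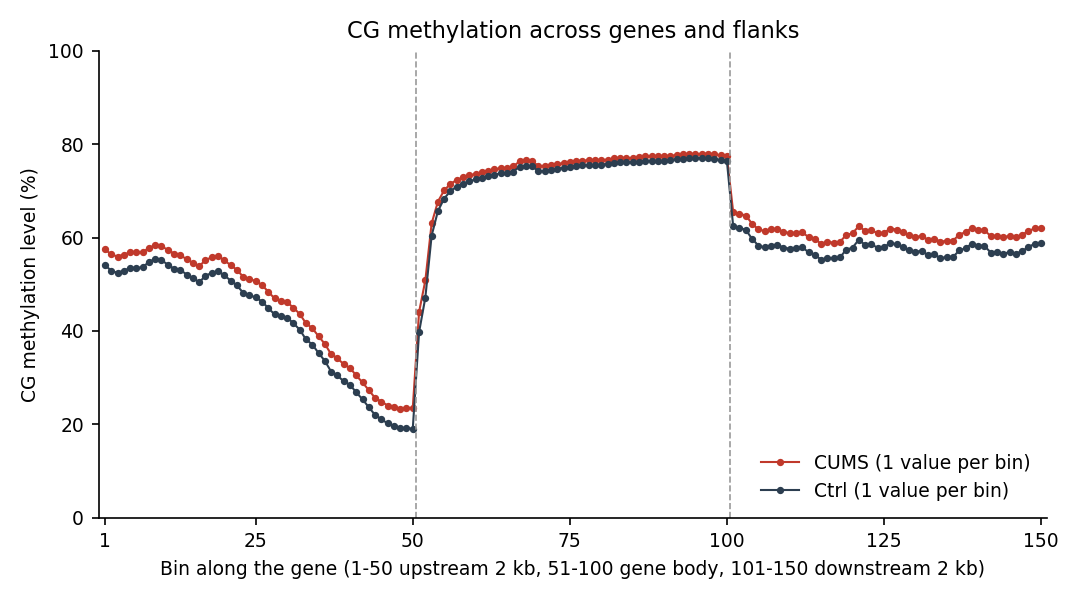
CG methylation level (%) in each of the 150 bins, with 1 combined value per group and bin, and with dashed lines at the gene start and gene end. Both groups have the same shape, with a minimum of 23.3% in CUMS and 19.1% in Ctrl before the gene start and about 77% to 78% late in the gene body.

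The decline toward the gene start was gradual. Upstream bins 1 to 10 averaged 57.1% (CUMS) and 53.8% (Ctrl), whereas bins 41 to 50 averaged 25.5% (CUMS) and 21.6% (Ctrl). The nearest bins thus had 44.7% of the level of the outermost bins in CUMS and 40.2% in Ctrl. The decline was not uniform, because the highest upstream level was reached in bin 9 (58.3% in CUMS and 55.4% in Ctrl) and a smaller local maximum lay in bin 19 (56.03% and 52.8%). The largest drop between neighbouring upstream bins led into bin 37 in both groups and measured 2.20 percentage points (CUMS) and 2.30 (Ctrl). The middle between the outer level and the minimum was passed at 650.3 bp before the gene start in CUMS and at 646 bp in Ctrl, that is, at nearly the same distance. A fixed level was met closer to the gene in CUMS. This follows from the higher level of CUMS in every upstream bin and is no separate result. The 50% level was last crossed at 987 bp before the gene start in CUMS and at 1149 bp in Ctrl, the 40% level at 646 bp and 735 bp, and the 30% level at 367 bp and 485 bp.

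The minimum near the gene start was a flat floor. In Ctrl the levels in upstream bins 46 to 50 were 20.2%, 19.7%, 19.1%, 19.2% and 19.1%, with the lowest value in bin 50. In CUMS they were 24.04%, 23.7%, 23.3%, 23.5% and 23.5%, with the lowest value in bin 48. At the minimum, the level lay 33.8 points below the mean of upstream bins 1 to 10 in CUMS and 34.7 points below it in Ctrl, which was 59.2% and 64.5% of that mean. Bin 50 in CUMS lay 0.280 points above the minimum of that group. The 2 groups therefore differed in the bin of the minimum, but the bins concerned differed by less than 1 point, and with no replicate error this shift could not be told from noise.

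The density of CG dinucleotides was compared with the levels over the same stretch. Among protein-coding RefSeq windows the density was 3.51 per 100 bases at 240 to 201 bases before the gene start, the place of bin 45, and 5.87 per 100 bases in the last 40 bases, the place of bin 50. Over all 33469 RefSeq windows it was 3.08 and 4.73 per 100 bases. Over these 6 bins the Ctrl level went from 21.1% to 19.1% and the CUMS level from 24.9% to 23.5%, while the difference between the groups went from 3.76 to 4.44 points. The bins closest to the gene start thus combined the densest CG content of the window and levels within 1 point of the minimum. In points, they also had the largest group differences of the upstream flank. As a share of the cytosines unmethylated in Ctrl, the difference was instead lower in bin 50 (5.49%) than in bin 1 (7.36%).

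**Figure D2:**
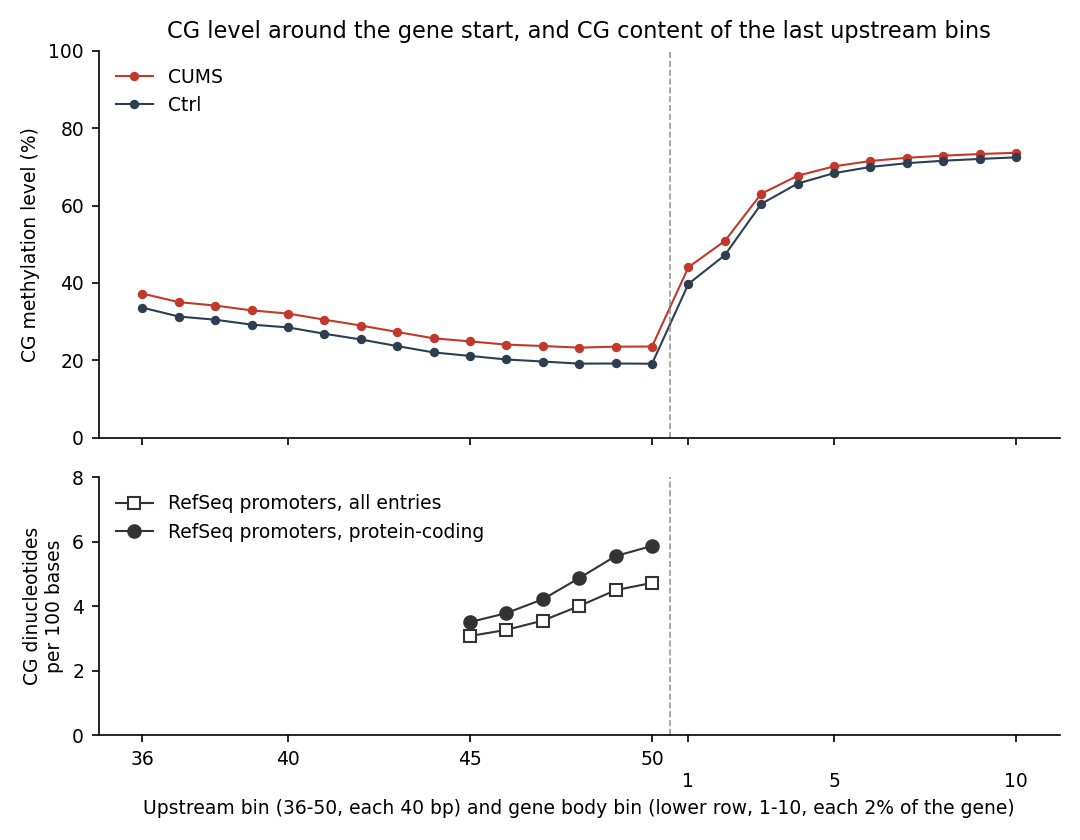
Upper panel, CG level (%) of CUMS and Ctrl in upstream bins 36 to 50 and gene body bins 1 to 10. Lower panel, CG dinucleotides per 100 bases of RefSeq promoter windows in the place of upstream bins 45 to 50, where the density of protein-coding windows goes from 3.51 to 5.87 as the Ctrl level goes from 21.1% to 19.1%.

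Next, the steps at the gene boundaries were measured. Between upstream bin 50 and gene body bin 1 the level differed by 20.5 points in CUMS and by 20.6 points in Ctrl, with the higher level inside the gene. With the mean of 3 bins on each side the step was 29.2 points in CUMS and 30.0 points in Ctrl, and with 5 bins it was 35.5 and 36.8 points. The size of the step and the gap between the groups therefore depended on the width used, with the smaller step in CUMS at each width. Flank bins span 40 bp, whereas a gene body bin spans a fiftieth part of each gene and is longer in long genes, so the step also joins bins of unequal width. The level continued to climb within the gene body, with the largest gain between neighbouring bins leading into bin 3 (12.2 points in CUMS and 13.2 in Ctrl). Gene body bins 2, 3, 4 and 5 had 50.8%, 63.03%, 67.7% and 70.1% in CUMS and 47.2%, 60.4%, 65.7% and 68.4% in Ctrl. The level came within 5 points of its highest value in bin 9 in CUMS and in bin 10 in Ctrl. From bin 21 to bin 50 it averaged 77.01% (CUMS) and 76.06% (Ctrl).

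The step at the gene end went the other way and differed between the groups. From gene body bin 50 to downstream bin 1 the level decreased by 12.0 points in CUMS (from 77.4% to 65.5%) and by 14.0 points in Ctrl (from 76.4% to 62.4%). The step was thus 1.98 points smaller in CUMS. Bins of unequal width meet at this boundary too. In both groups 47 of the 50 gene body bins lay above the highest bin of either flank. The level continued to decline over the first downstream bins, to 61.8% in CUMS and 58.3% in Ctrl in bin 5, and it then stayed between 58.7% and 62.5% in CUMS and between 55.3% and 59.6% in Ctrl through bin 50. No minimum like that before the gene start was present after the gene end. The lowest downstream level, in bin 15 of both groups, was 58.7% in CUMS and 55.3% in Ctrl. The downstream mean lay 3.92 points above the mean of upstream bins 1 to 10 in CUMS and 3.88 points above it in Ctrl.

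Non-CG levels had much smaller steps at the same boundaries. These levels were low, with CHH at 0.325% (CUMS) and 0.286% (Ctrl) in upstream bin 50 and CHG at 0.312% and 0.284%. The part in them of cytosines missed by the deaminase was not tested. At the gene start the CHH step measured 0.0313 points (CUMS) and 0.0405 points (Ctrl), and the CHG step 0.0168 and 0.0205 points, each with the higher level inside the gene. At the gene end the CHG step was 0.00256 points in CUMS and 0.00508 points in Ctrl, with the higher level downstream. The CHH level at the gene end went in opposite directions, with a step of 0.00150 points in CUMS and -0.00302 points in Ctrl. These CHH steps were smaller than the next change, from downstream bin 1 to bin 2 (0.350% to 0.346% in CUMS, 0.320% to 0.315% in Ctrl). With no replicate error, the opposite directions could not be told from noise.

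The difference between CUMS and Ctrl was then determined for each bin. CUMS had the higher CG level in 150 of 150 bins, and over the bins of all 3 contexts this share was also 100%, so the direction did not set the CG profile apart. Over the CG profile the difference ranged from 0.870 points in gene body bin 42 (77.7% in CUMS and 76.8% in Ctrl) to 4.44 points in upstream bin 50. Neighbouring bins average over the same genes and samples and are not independent of each other.

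In the upstream flank, the difference was smallest in bin 9 (2.94 points) and largest in bin 50. By blocks of 10 bins, from the outermost to the nearest, its mean was 3.26, 3.27, 3.41, 3.55 and 3.91 points. Most of the added difference lay in the last bins, with 3.84 points in bin 46, 4.00 in bin 47, 4.14 in bin 48 and 4.35 in bin 49. The difference was of similar size on the other side of the gene start, at 4.32 points in gene body bin 1, and it then narrowed to 3.66 points in bin 2, 2.61 in bin 3, 2.03 in bin 4 and 1.75 in bin 5. Upstream bin 50 and gene body bin 1 thus lay more than 20 points apart in level, whereas from the first to the second of them the group difference decreased by 0.127 points.

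Within the gene body, the mean difference of bins 1 to 10 was 2.11 points, and that of bins 11 to 20 was 1.11 points. It was 0.999 points in bins 21 to 30, 0.907 in bins 31 to 40 and 0.917 in bins 41 to 50. At the gene end the difference went from 1.03 points in bin 50 to 3.01 points in downstream bin 1. In the downstream flank it lay between 2.90 points (bin 21) and 3.54 points (bin 47), and the means of its blocks of 10 bins were 3.29, 3.29, 3.10, 3.39 and 3.44 points. The difference therefore did not decline with distance from the gene end within the 2000 bp measured.

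**Figure D3:**
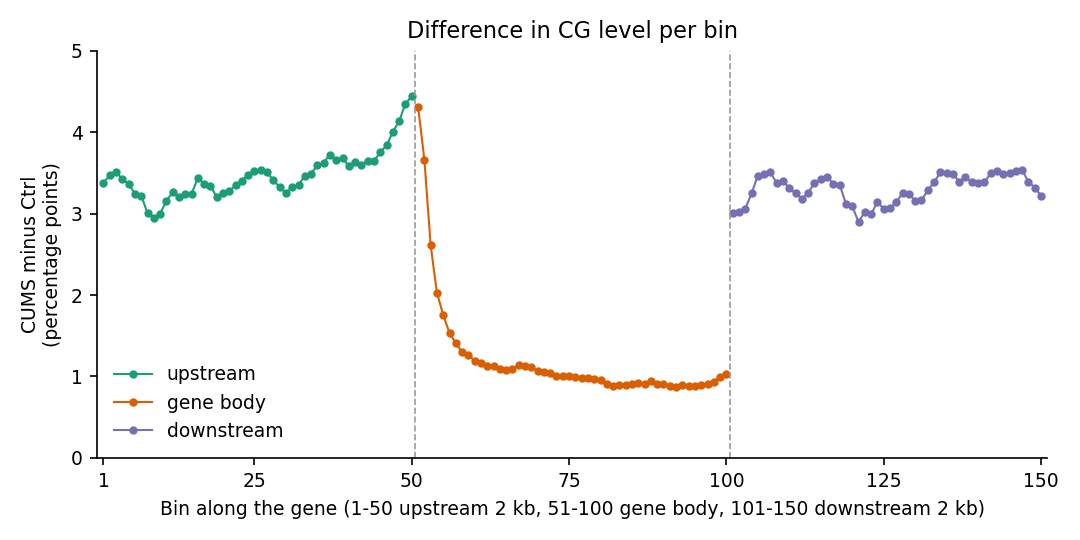
CUMS minus Ctrl in CG level (percentage points) in each bin, coloured by part, with dashed lines at the gene start and gene end. The difference peaks at 4.44 points in upstream bin 50, narrows to 0.870 points in gene body bin 42 and lies between 2.90 and 3.54 points in the downstream flank.

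The difference was set against the level in Ctrl. In the gene body, bins with a higher Ctrl level had a smaller difference (Pearson r = -0.995 across 50 bins), and the difference decreased by 0.945 points for each 10 points of Ctrl level. In the upstream flank r across 50 bins was -0.848, and the difference decreased by 0.204 points per 10 points of level. In the downstream flank r across 50 bins was -0.612, and the difference decreased by 0.691 points per 10 points of level. These coefficients describe neighbouring bins that share genes and samples, and the Ctrl level enters both axes. Bins of similar Ctrl level in different parts were also set side by side. Without a replicate error, the gaps between their differences could not be judged. Gene body bin 2 and upstream bin 25 both had 47.2% in Ctrl and had differences of 3.66 and 3.52 points. Gene body bin 1 (39.7% in Ctrl) had 4.32 points, compared with 3.35 points in upstream bin 32 (40.3%). Gene body bin 3 (60.4%) had 2.61 points, compared with 3.25 points in downstream bin 4 (59.8%).

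**Figure D4:**
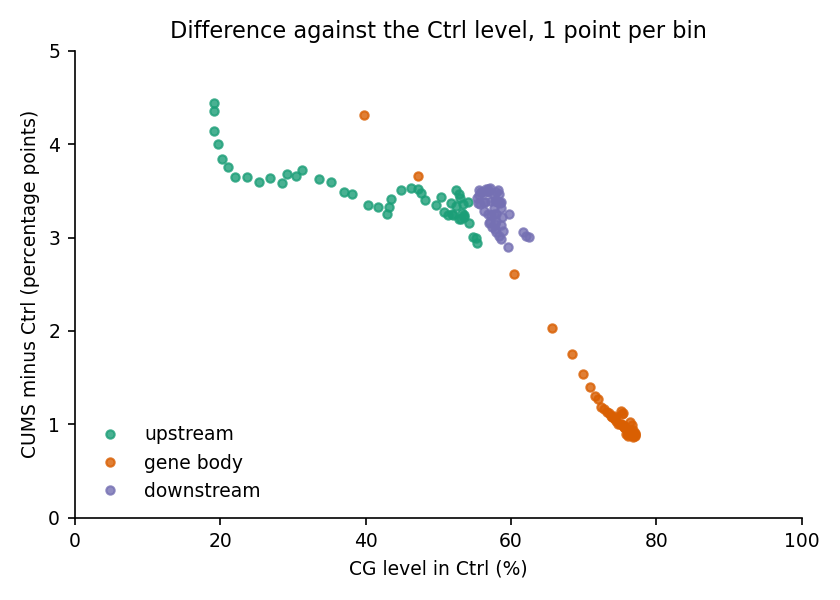
CUMS minus Ctrl in CG level (percentage points) against the CG level in Ctrl (%), with 1 point per bin and 50 bins in each part. Gene body bins form a steep line from 4.32 points at 39.7% down to 0.870 points, and the bins of both flanks lie between 2.90 and 4.44 points over Ctrl levels from 19.1% to 62.4%.

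Relative to the Ctrl level, the contrast between the parts was sharper. The ratio of CUMS to Ctrl was 1.23 in upstream bin 50, 1.06 in upstream bin 1, 1.11 in gene body bin 1 and 1.01 in gene body bin 50. In the downstream flank it lay between 1.05 and 1.06. A ratio of at least 1.1 was reached in 17 of 150 CG bins (11.3%), namely upstream bins 35 to 50 and gene body bin 1, and in 18.4% of the bins of all 3 contexts. The share among CG bins was below that background, which came largely from CHH, where 62 of 150 bins reached the ratio. In CHG 4 of 150 bins did. On the odds scale the ratio was highest in upstream bin 50 (1.30) and lowest in gene body bin 32 (1.05). As a share of the cytosines unmethylated in Ctrl, the difference was instead highest in downstream bin 7 (8.40%) and was 5.49% in upstream bin 50 and 3.67% in gene body bin 32.

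CUMS was also higher than Ctrl in both non-CG contexts. The CHH level differed by 0.0232 to 0.0433 points between CUMS and Ctrl, and the CHG level by 0.0142 to 0.0337 points, compared with 0.870 to 4.44 points in CG. The CHH ratio was highest in upstream bin 46 (1.15, 0.324% in CUMS and 0.280% in Ctrl) and the CHG ratio in upstream bin 45 (1.12, 0.310% and 0.277%). In gene body bin 1 the CG ratio (1.11) was above the CHH ratio (1.09), and from bin 2 to bin 50 it was below it. Over the gene body the mean ratio was 1.08 in CHH and 1.02 in CG. The part of incomplete deamination in the CG difference was not tested, and the unmethylated lambda DNA added to the libraries was not analysed here. The CHH level of each bin and group was then taken as the share of unconverted cytosines and removed. The mean CG difference was 3.47 points upstream, 1.21 in the gene body and 3.30 downstream, compared with 3.48, 1.21 and 3.30 points before removal. The CHH level was at most 0.369%, so this removal could change little and does not test that part.

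**Figure D5:**
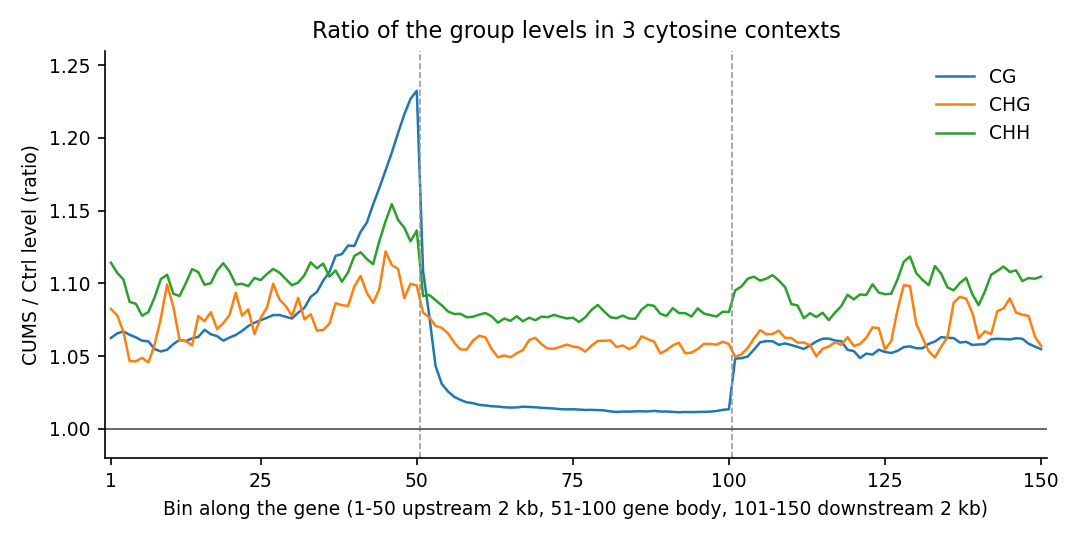
Ratio of the CUMS to the Ctrl level in each bin for the CG, CHG and CHH contexts, with a horizontal line at 1. The CG ratio is the highest of the 3 at the gene start (1.23 in upstream bin 50) and the lowest of the 3 from gene body bin 3 to bin 50, where its minimum is 1.01.

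The fine structure of the profile was largely shared by both groups. In the downstream flank, CUMS and Ctrl each had 11 local maxima and 12 local minima, and all of them fell in the same bins in both groups. In the upstream flank 2 of 3 maxima fell in the same bin, and 3 of the 4 minima of CUMS matched the 3 of Ctrl. In the gene body 5 of 6 maxima and 4 of 5 minima did. The shared downstream maxima included those in downstream bin 21 (62.5% in CUMS and 59.6% in Ctrl) and downstream bin 39 (62.1% and 58.7%). The change from bin to bin had the same sign in both groups in 49 of 49 downstream neighbour pairs, 47 of 49 upstream pairs and 47 of 49 gene body pairs. The median size of this change in Ctrl was 0.924 points upstream and 0.405 points downstream, whereas the median change of the group difference was 0.0645 and 0.0677 points. The upstream median also takes in the slope toward the gene start. The unevenness along the flanks was thus common to the 2 groups. In their difference it was smaller and partly inverted. The smallest differences of the flanks lay at local maxima of the level, in upstream bin 9 (2.94 points) and downstream bin 21 (2.90 points).

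Finally, the authors' list of CG regions that differ between the groups was consulted at the features the profile spans. These regions were called from the same samples and contrast, and were selected by the authors on the size of their difference, so they are no independent evidence of the direction or size. Of 437 listed CG regions annotated to a TSS, 434 were higher in CUMS, and of all listed CG regions 80.0% were. The TSS regions had a median of 18.5% (CUMS) and 6.24% (Ctrl). The remaining 3 TSS regions were lower in CUMS and are named here after their values were seen. They belonged to Ubxn2a (10.4% in CUMS and 36.1% in Ctrl), ENSRNOG00000032807 (37.0% and 50.6%) and ENSRNOG00000068449 (69.2% and 81.6%). At the gene end 25 CG regions were annotated to a TES, and all 25 were higher in CUMS, with a median of 28.02% against 8.27% in Ctrl. A region whose Ctrl level lies below the authors' cutoff on the difference could only be listed as higher in CUMS. The median Ctrl levels of the TSS and TES regions lie below that cutoff, so these shares were in large part fixed by the listing. The Bend4 region at the TSS (ENSRNOG00000053303, chromosome 14, 40752937 to 40753887 on mRatBN7.2) had 18.1% in CUMS and 5.72% in Ctrl.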

How the data were processed

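CG methylation was profiled in 3 CUMS and 3 Ctrl samples, grouped by their titles. Per the study's methods and the submitters' processing notes, reads were checked with FastQC (0.11.3), trimmed with fastp (0.20.0) and aligned to mRatBN7.2 with Bismark (0.16.3). The authors deposited each level as a fraction from 0 to 1, with 1 value per bin, context and group, and levels are given here in percent. How genes and samples were weighted in a bin is not given in the sources used here. Bins were taken as equal in width and as running from the outer upstream flank to the outer downstream flank. The values carried no counts, so the depth of a bin was unknown although the study states a coverage per sample. Without replicates no interval or test could be made, and the coefficients across bins are descriptive only. Bin summaries were computed with pandas (2.3.3) and numpy (2.4.6) under Python (3.11.15), after the code had been checked on profiles with known answers.

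The named bins were the first, last, lowest and highest bins of each part, those with the largest and smallest difference, and those within 5 bins of a boundary. The bins of matched level, the gene body bins 17 to 19 and the ratio limit of 1.1 were added after the values were seen. The genes looked up for promoter sequence were Actb, Pecam1, Cldn5 and Cacna1c, of which 2 of 4 matched by symbol, plus the gene with the top CG region at a TSS among those with a promoter entry. That gene was Bend4, which ranked behind a ribosomal RNA gene and Pbx3, neither of which had an entry. The rule for that gene named the authors' region score, a column of their comparison, and the difference in level multiplied by the number of cytosines was used in its place. The bins and lists were chosen with earlier results of these data known. The annotation table's columns of the authors' differences and scores were not used.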

Additional observations from a re-analysis of the deposited data

How the results depend on the processing

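No paired analysis was possible because the profile gives CUMS and Ctrl 1 combined value each, and for the same reason no sample could be left out. Alternatives gave 35 further values for 10 results. Of these, 31 stayed within 1.5 times the value (or, on a log2 scale, kept the direction) and in the same bin, 4 moved and 0 reversed. CUMS was higher in every bin, so no group difference could reverse and those on a log2 scale had to keep the direction. The CHH level was at most 0.369%, so its removal could not move a value by 1.5 times. Many of the unchanged outcomes were therefore fixed in advance. As the mean over 3 bins, the minimum lay in upstream bin 49 in both groups, at 19.1% in Ctrl and 23.4% in CUMS. Measured over 5 bins on each side, the step at the gene start was 35.5 points in CUMS and 36.8 points in Ctrl, since these means take in bins on the slope of the profile. The largest difference stayed in upstream bin 50 after removal of the CHH level, as a log2 ratio and on the log2 odds scale. It also stayed there in the mean over neighbouring bins, which at the end of the flank takes in bins 49 and 50 only. The share of the cytosines unmethylated in Ctrl was not among these alternatives, and on that scale the difference was highest in downstream bin 7 (8.40%). The depth of each bin was unknown, so how far it limits a value could not be given.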

Other observations

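A raised stretch of 3 bins stood out within the gene body. In bins 17 to 19 the mean CG level was 76.4% in CUMS and 75.3% in Ctrl, compared with 75.3% in CUMS and 74.2% in Ctrl in the adjoining bins 16 and 20. The excess was 1.15 points in CUMS and 1.101 points in Ctrl, larger than the median change of 0.211 points between neighbouring gene body bins of Ctrl. The same bins stood out in the non-CG contexts. In CHH and CHG they were each among the 4 highest of the 50 gene body bins in both groups, and their CHH level was 1.27% above that of the adjoining bins in CUMS and 1.48% above it in Ctrl. The stretch was seen in the 2 combined values only, and which genes lie behind it was not tested.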
